A study of Homo sapiens with 52 samples.

Results

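The report covers 10 human genes of the WNT pathway, chosen by name: the target and feedback genes AXIN2, LEF1, RNF43 and TNFRSF19, the secreted inhibitors DKK1, SFRP1, SFRP2 and FRZB, and the TCF factors TCF7L1 and TCF7L2. The choice was made with earlier results of these data known. Every probe set whose annotation names 1 of these symbols and no other gene was taken, which gave 30 probe sets, with 17 of them on chip A and 13 on chip B of the Affymetrix HG-U133 pair. They belong to 10 of the 17518 genes that have a probe set of their own on the chip pair. Of the 30, 24 were called present on at least 2 of 26 arrays and were tested, and each of the 10 genes kept at least 1 tested probe set. The 6 probe sets that were not tested were 222695_s_at of AXIN2, 221557_s_at of LEF1, 228413_s_at of SFRP1, 231273_x_at and 244419_at of FRZB, and 236094_at of TCF7L2.

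Secreted WNT ligands bind Frizzled receptors and LRP coreceptors on the cell surface. In the absence of ligand, a complex built on AXIN scaffolds marks β-catenin for degradation, and with ligand β-catenin accumulates, enters the nucleus and acts with TCF/LEF factors on target genes. Several targets are themselves brakes of the pathway, and secreted proteins of the DKK and SFRP families hold ligands or coreceptors away from signalling. In embryonic stem cells the pathway bears on both self-renewal and the choice of lineage, and retinoic acid, the ligand of nuclear retinoic acid receptors, is a common agent of differentiation.

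RNA was profiled from H1, H9 and HUES8, which are established human embryonic stem cell lines, all kept in mTeSR medium on Matrigel. H1 cells were sampled untreated (day 0) and on each of days 1 to 10 in 5 µM retinoic acid, and H9 and HUES8 cells were sampled undifferentiated and without the agent. Each of the 13 groups had 2 biological replicates, and each of the 26 samples was hybridised to both chips, giving 52 arrays. The samples hold no untreated H1 culture from days 1 to 10, so retinoic acid and time in culture cannot be told apart, and each line is a single line.

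The values were MAS5 signals, a linear fluorescence intensity scaled to the same trimmed mean on every array, with a detection p-value per probe set that gives a present call below 0.05 and an absent call from 0.065. Present calls made up 44.8 to 54.2% of probe sets on the A chip and 31.1 to 40.1% on the B chip. The ratio of the 3′ to the 5′ ACTB control probe sets, which rises as RNA is degraded or shortened in labelling, lay between 1.17 and 1.98 on all 52 arrays. On the A chip its group mean was 1.29 on day 0, 1.39 to 1.53 on days 1 to 9, and 1.67 on day 10. The day 10 samples differed, at 1.89 for replicate 1 and 1.45 for replicate 2. The same ratio for GAPDH was not higher on day 10 (0.789 and 0.821) than on day 0 (0.855 and 0.826) on that chip. Results that were lost with the ACTB ratio as a covariate are named with their genes. Replicates of a group correlated at r = 0.927 to 0.958 on the A chip and 0.893 to 0.929 on the B chip. Signals of different probe sets are not comparable as levels, so each gene, or summed signal of a marker list, is compared only with itself across samples. As the RNA came from whole cultures, fewer cells of a type and less RNA per cell cannot be told apart.

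Promoter windows are shown for 4 of the genes as examples of the courses found here. TNFRSF19 and LEF1 had high signals late, SFRP2 had its high signals in undifferentiated cells, and DKK1 was rarely detected. Each window holds the 250 bases upstream of a RefSeq transcription start (GRCh38.p14), read 5′ to 3′ on the strand of the gene. Capitals mark a match on either strand to CTTTGA, the core that TCF/LEF factors recognise, or to AGGTCA or AGTTCA, half-sites of retinoic acid receptors. The windows are TNFRSF19 at chr13:23570162-23570411 (plus strand), LEF1 at chr4:108166302-108166551 (minus strand), SFRP2 at chr4:153789084-153789333 (minus strand) and DKK1 at chr10:52314031-52314280 (plus strand).
TNFRSF19: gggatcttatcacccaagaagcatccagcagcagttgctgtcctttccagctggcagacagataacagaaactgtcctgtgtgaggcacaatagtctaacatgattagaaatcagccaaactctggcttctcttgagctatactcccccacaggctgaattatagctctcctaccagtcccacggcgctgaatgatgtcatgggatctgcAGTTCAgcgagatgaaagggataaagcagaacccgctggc
LEF1: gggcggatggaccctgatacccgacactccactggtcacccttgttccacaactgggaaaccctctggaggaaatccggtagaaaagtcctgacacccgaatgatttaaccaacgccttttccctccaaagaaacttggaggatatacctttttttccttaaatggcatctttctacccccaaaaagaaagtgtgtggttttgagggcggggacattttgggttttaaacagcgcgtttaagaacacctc
SFRP2: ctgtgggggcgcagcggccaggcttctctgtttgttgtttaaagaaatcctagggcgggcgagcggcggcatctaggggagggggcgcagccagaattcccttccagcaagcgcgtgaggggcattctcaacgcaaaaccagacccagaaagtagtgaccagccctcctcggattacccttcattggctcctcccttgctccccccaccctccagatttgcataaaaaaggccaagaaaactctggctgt
DKK1: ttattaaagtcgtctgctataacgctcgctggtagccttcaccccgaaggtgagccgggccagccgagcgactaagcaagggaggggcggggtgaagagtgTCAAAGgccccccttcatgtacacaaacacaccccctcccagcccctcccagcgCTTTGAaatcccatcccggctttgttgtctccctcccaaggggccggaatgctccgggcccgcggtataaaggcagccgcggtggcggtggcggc
The table used held 12 such windows for 8 of the 10 genes, without AXIN2, and SFRP1 was not used. CTTTGA occurred in 1 of the 12 windows, the 1 of DKK1, against 11.2% of 35116 windows of the same length. Its shorter form CTTTG, which every CTTTGA contains, occurred in 7 of the 12, against 42.1% of all windows. AGGTCA occurred in 1 window, of a TCF7L2 start, against 12.1%, and AGTTCA occurred in 2 windows, 1 each of TNFRSF19 and RNF43, against 8.8%. TNFRSF19 had another window, not shown, at chr13:23579110-23579359, which holds none of the marked motifs. The windows shown for LEF1 and SFRP2 hold none of the marked motifs. These matches describe letters in short windows only.

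Of the 10 genes, 8 varied over the 11 H1 days in limma's F test at a Benjamini-Hochberg adjusted p under 0.05, against 26.2% of all 12201 genes tested with 1 probe set each. SFRP1 and DKK1 were the exceptions. Because the genes were listed with earlier results of these data known, such shares describe them and are not a test of the list. Day 1 against day 0 called only AXIN2, higher, against 1.12% of all genes. AXIN2 rose and SFRP2 fell on days 2 and 3 (2 of 10 genes, against 3.44% and 5.04%), and on day 4 the 2 called genes were SFRP2, lower, and TNFRSF19, higher (7.34%). FRZB joined these as another gene, making 3, on days 5 and 6 (against 9.72% and 13.2%). LEF1 and RNF43 made up 5 called genes on day 7 (14.8%), and on day 8 the 5 were FRZB, LEF1, TNFRSF19, SFRP2 and TCF7L1 (15.7%). On days 9 and 10 there were 6 called genes (19.6% and 24.4% of all genes): FRZB, RNF43, LEF1 and TNFRSF19 were higher and TCF7L1 and SFRP2 were lower.

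By role, 3 of the 4 target and feedback genes were higher on day 10, 1 of the 4 secreted inhibitors was higher and 1 was lower, and 1 of the 2 TCF factors was lower. The share of all genes called higher on day 10 was 12.4%, and the share called lower was 12%. The median log2 change of the 10 genes on day 10 was 0.17, against 0.00 for all 12201 genes. No gene of the 10 was called between any day from day 2 on and the day before, where the share of all genes called was 0.27% on day 2, 0.0574% on day 3, 0.0082% on day 4 and 0% from day 5 on. Among the undifferentiated lines, 1 of the 10, LEF1, was called for H9 against H1 day 0 (4.45% of all genes), none for HUES8 against H1 day 0 (0.189%) and none for HUES8 against H9 (2.56%). The 6 genes called on day 10 also lay on 1 side of all 3 undifferentiated lines (13.9% of all genes).

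**Figure D1:**
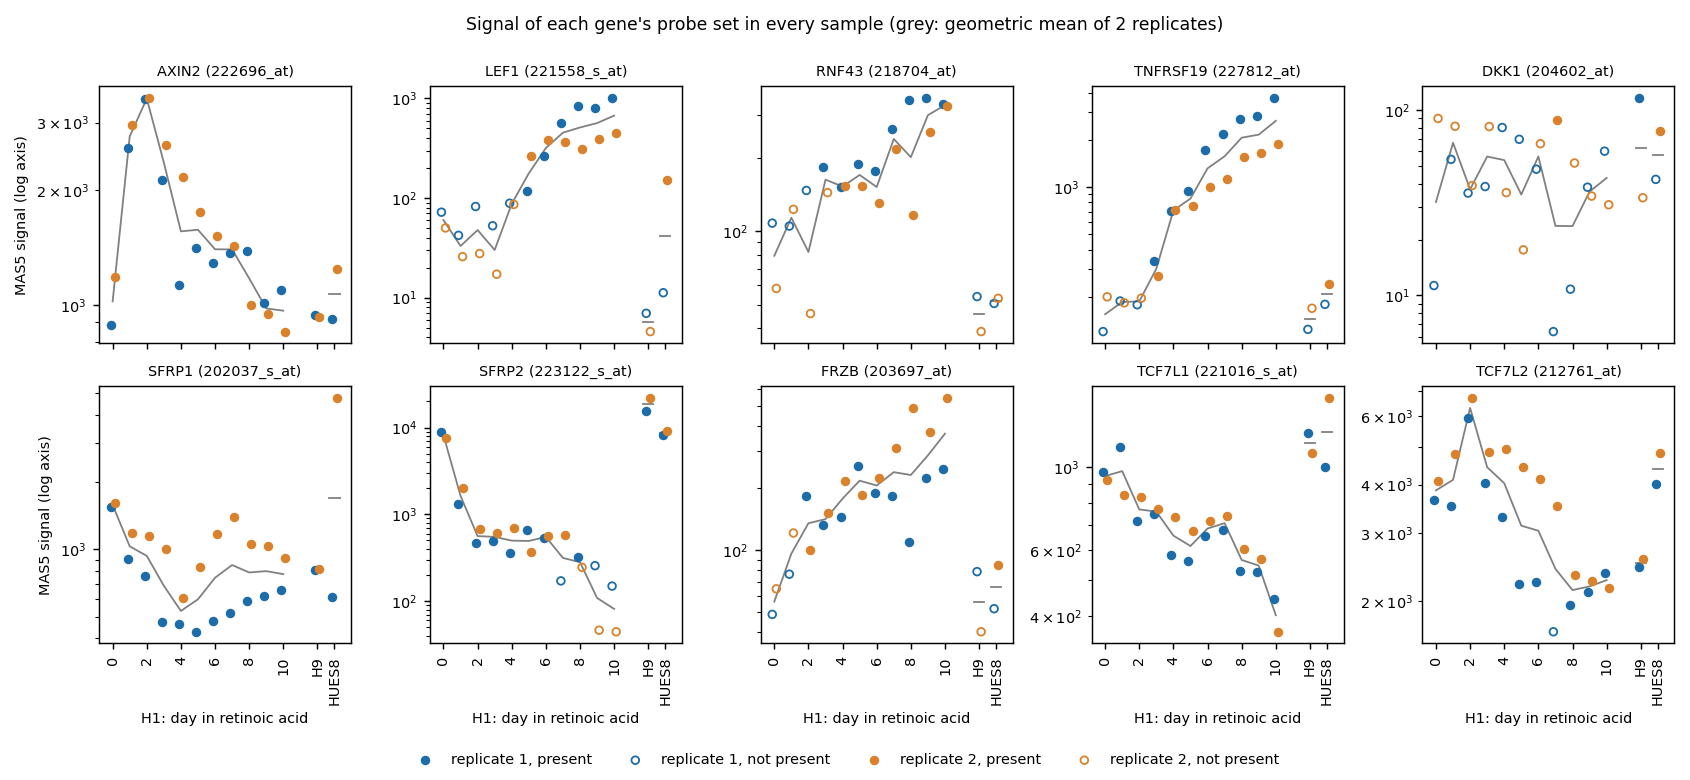
MAS5 signal (log axis, its own range for each gene) of the probe set that stands for each of the 10 genes, by H1 day in retinoic acid and for undifferentiated H9 and HUES8; each point is 1 sample, blue for replicate 1 and orange for replicate 2, filled where called present, and the grey line or bar is the geometric mean of the 2 replicates. AXIN2 peaks on days 1 to 3 at 2122 to 3482, SFRP2 leaves an undifferentiated range of 7515 to 21867 within the first days, and LEF1, TNFRSF19 and FRZB have their highest signals on day 10.

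AXIN2 encodes the scaffold of the β-catenin destruction complex and is a widely used readout of the pathway, since β-catenin induces it and it then limits β-catenin. Its signals with 222696_at were 884 and 1180 on day 0, 2574 and 2959 on day 1, 3454 and 3482 on day 2, and 2122 and 2623 on day 3. They were 1124 and 2158 on day 4, 1412 and 1751 on day 5, and 1290 and 1515 on day 6. All 6 samples of days 1 to 3 were above all 6 undifferentiated samples, which lay between 884 and 1239. On days 7 to 10 the 8 signals ran from 851 to 1425 with a median of 1053, and 3 of the 8 were above the undifferentiated range. The probe set was present on every array.

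AXIN2 rose by 1.43 ± 0.27 (log2 change ± SE, 2 samples a group) on day 1, or 2.70-fold (limma adjusted p = 0.0061), by 1.76 ± 0.27 or 3.40-fold on day 2 (adjusted p = 0.00033), and by 1.21 ± 0.27 or 2.31-fold on day 3 (adjusted p = 0.0087). The change was 0.61 on day 4 (adjusted p = 0.227) and −0.08 on day 10 (adjusted p = 0.873), so neither passed the test. The day 1 call rested on single libraries, with 1.23 (adjusted p = 0.112) without the replicate 1 library of day 0 and 1.33 (adjusted p = 0.0589) without replicate 2 of day 1. The same held for day 3, at 1.00 (adjusted p = 0.143) without replicate 1 of day 0 and 1.05 (adjusted p = 0.111) without replicate 2 of day 3. Day 4 passed without its replicate 1, at 1.08 (adjusted p = 0.0337). The second AXIN2 probe set, 224498_x_at, whose name marks possible cross-hybridisation, had 118 and 268 on day 0, both absent, and 499 and 698 on day 2, both present. It rose by 1.73 on day 2 (adjusted p = 0.0314), at least 3.32-fold, where the lower group has no present call and its signals were raised to the lowest present signal of their array. That call was lost without replicate 1 of day 0 (1.14, adjusted p = 0.387) or replicate 1 (1.97, adjusted p = 0.0703) or 2 (1.49, adjusted p = 0.251) of day 2, and on control centring (adjusted p = 0.0936), with no detection filter (adjusted p = 0.063) or on these 2 groups alone (adjusted p = 0.0517). The remaining tested probe set, 224176_s_at, was higher in all 6 samples of days 1 to 3 than in any undifferentiated sample, but its change of 1.19 on day 2 did not pass (adjusted p = 0.121) unless only the 2 groups were fitted (adjusted p = 0.0362).

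TNFRSF19, also known as TROY, is a receptor of the tumour necrosis factor superfamily that WNT signalling induces in several stem and progenitor cells. Its signals with 227812_at were 120 and 200 on day 0, 188 and 183 on day 1, 178 and 196 on day 2, and 336 and 272 on day 3. They were 710 and 712 on day 4, 945 and 758 on day 5, and 1728 and 1007 on day 6. From day 4 on, all 14 samples exceeded the highest undifferentiated sample, at 240. On the later days the signals were 2195 and 1130 (day 7), 2743 and 1562 (day 8), 2842 and 1649 (day 9), and 3713 and 1893 (day 10). The gene was absent in both samples of days 0, 1 and 2 and present in every sample from day 3 on.

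TNFRSF19 rose by 2.20 ± 0.41 on day 4 (limma adjusted p = 0.0012), at least 4.60-fold, and the increase reached 4.10 ± 0.41 on day 10 (adjusted p = 2.4e-07), at least 17.1-fold. Day 3, at 0.97, did not pass (adjusted p = 0.245). Against HUES8, in which 1 of 2 samples was called present, day 10 was higher by 3.68, or 12.8-fold. The other 2 probe sets moved the same way on day 10. Signals of 1177 and 799 with 223827_at went with a change of 2.49 (adjusted p = 0.0013), and signals of 573 and 386 with 224090_s_at went with 2.53 (adjusted p = 0.028). Each of these 2 was present on only 6 of 26 arrays. Early on they differed: on days 1 to 3, 5 of 6 samples with 223827_at were below all 6 undifferentiated samples. This held for 1 of 6 with 224090_s_at and 0 of 6 with 227812_at. The 224090_s_at call was lost without any 1 of its 4 libraries (2.25 to 2.82, adjusted p = 0.0728 to 0.15) and with the ACTB ratio as a covariate (1.92, adjusted p = 0.245), while no alternative ended that of 227812_at or of 223827_at.

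LEF1 is a DNA-binding partner of β-catenin and itself a WNT target. With 221558_s_at its signals were 72.1 and 50.1 on day 0, and all 6 signals of days 1 to 3 were absent calls between 17.2 and 82.2. They were 88.7 and 86.3 on day 4, 119 and 263 on day 5, and 267 and 379 on day 6. On the last days they were 565 and 364 (day 7), 833 and 314 (day 8), 810 and 395 (day 9), and 1013 and 446 (day 10). All 8 samples of days 7 to 10 were above the highest undifferentiated sample, 1 of the HUES8 pair at 152.

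LEF1 was higher on day 10 by 3.48 ± 0.87 (limma adjusted p = 0.00665), at least 11.2-fold, and on day 9 by 3.24 (adjusted p = 0.0132), at least 9.42-fold. Day 6 was called only with 50 added to each signal (1.74, adjusted p = 0.0262) or on the 2 groups alone (2.40, adjusted p = 0.0029). Leaving out 1 library ended the calls of days 9 and 10. Day 10 came to 3.22 (adjusted p = 0.0615) without replicate 2 of day 0 and 2.89 (adjusted p = 0.0772) without replicate 1 of day 10, and to 3.00 (adjusted p = 0.119) with the ACTB ratio as a covariate. Day 9 came to 2.97 (adjusted p = 0.0955) without replicate 2 of day 0, 2.72 (adjusted p = 0.116) without its own replicate 1, and 2.95 (adjusted p = 0.0541) with the ACTB ratio. The calls of 2.92 on day 7 (adjusted p = 0.0309) and 3.09 on day 8 (adjusted p = 0.0207) were weaker still. Day 7 was lost without any 1 of its 4 libraries (2.60 to 3.23, adjusted p = 0.0772 to 0.167). Day 8 was lost without replicate 1 of day 0 (adjusted p = 0.0649), replicate 2 of day 0 (adjusted p = 0.131) or its own replicate 1 (adjusted p = 0.216). The ACTB ratio as a covariate ended both (adjusted p = 0.0801 and 0.0836), and day 7 was also lost on control centring (adjusted p = 0.059), with no detection filter (adjusted p = 0.0502) and with no intensity trend (adjusted p = 0.0556). The other LEF1 probe set, 210948_s_at, had signals of 109 and 97.3 on day 10 and a change of 2.13 that did not pass (adjusted p = 0.174) unless 50 was added to each signal (1.05, adjusted p = 0.0461).

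RNF43 is a membrane ubiquitin ligase that removes Frizzled receptors from the cell surface, a second brake that WNT signalling induces. Its only probe set, 218704_at, gave 108 and 58.3 on day 0, with both samples absent. It gave 188 and 154 on day 5, 176 and 131 on day 6, and 262 and 218 on day 7. The last days gave 346 and 117 (day 8), 352 and 254 (day 9), and 332 and 326 (day 10). The 6 undifferentiated samples were all absent, between 38.8 and 108, and all 14 samples from day 4 on were above them.

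RNF43 was higher by 2.05 ± 0.49 on day 10 (limma adjusted p = 0.0050), at least 4.15-fold, and by 1.92 on day 9 (adjusted p = 0.0098), at least 3.77-fold. Without replicate 2 of day 0 these were 1.61 (adjusted p = 0.0857) and 1.47 (adjusted p = 0.131), and day 9 without its replicate 1 was 1.68 (adjusted p = 0.086). With the ACTB ratio as a covariate, day 10 was 1.88 (adjusted p = 0.0836). The day 7 call of 1.59 (adjusted p = 0.0373) was lost without replicate 2 of day 0 (1.15, adjusted p = 0.295) and without replicate 1 (1.46, adjusted p = 0.154) or replicate 2 (1.73, adjusted p = 0.103) of day 7. It was also lost on control centring (adjusted p = 0.0985), with no detection filter (adjusted p = 0.0689), with the ACTB ratio (adjusted p = 0.0844) and on the 2 groups alone (adjusted p = 0.0515). Day 8 was called only without its replicate 2, at 2.13 (adjusted p = 0.0165), with quantile normalization (adjusted p = 0.0308) and in the fit blocked on replicate number (adjusted p = 0.0313). The F test over the days, at 0.031, was lost without any 1 of 4 libraries, replicate 2 of day 0 (0.0775), replicate 1 of day 9 (0.0688) and both of day 10 (0.0711 and 0.0723). Control centring (0.0729), no detection filter (0.0632) and the ACTB ratio (0.215) ended it too.

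SFRP2 carries a Frizzled-like cysteine-rich domain with which it binds WNT ligands outside the cell. With 223122_s_at its signals were 8864 and 7515 in untreated H1 cells, 15577 and 21867 in H9, and 8136 and 9126 in HUES8. In retinoic acid they were 1317 and 2028 on day 1, 464 and 679 on day 2, and 499 and 606 on day 3. All 20 treated samples were below all 6 undifferentiated samples. On days 9 and 10 all 4 samples were absent, at 256 and 46.2 and then at 149 and 44.3.

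SFRP2 fell by 3.86 ± 0.63 on the log2 scale on day 2 (limma adjusted p = 0.00074), which is 14.5-fold lower, and by 6.65 on day 10 (adjusted p = 1.3e-07), at least 93.2-fold lower. The day 1 change of −2.32, 4.99-fold lower, did not pass (adjusted p = 0.0901), although its 2 samples did not overlap the 2 of day 0. It passed when 50 was added to each signal before the log (−2.28, adjusted p = 0.0138) and when only these groups were fitted (adjusted p = 0.00369). The second probe set, 223121_s_at, gave 7459 and 8162 on day 0, 3252 and 4192 on day 1, 842 and 1443 on day 2, and 22.9 and 21.3 on day 10. It fell by 8.47 on day 10 (adjusted p = 4.19e-08), at least 146-fold lower. No alternative ended the calls of 223122_s_at from day 2 on.

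FRZB, also named SFRP3, is another secreted WNT-binding protein, and its course ran opposite to that of SFRP2. With 203697_at it gave 48.9 and 65.0 on day 0, 76.5 and 121 on day 1, all absent, and 182 and 100 on day 2, both present. It gave 255 and 184 on day 5 and 188 and 224 on day 6, and was present in every sample from day 2 on. Later signals were 183 and 310 (day 7), 110 and 484 (day 8), 222 and 371 (day 9), and 246 and 543 (day 10). All 14 samples of days 4 to 10 were above all 6 undifferentiated samples, which lay between 40.3 and 85.0.

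FRZB was higher by 2.70 ± 0.57 on day 10 (limma adjusted p = 0.0018), at least 6.48-fold, and this call stayed without any 1 library. A second probe set, 203698_s_at, went from 75.4 and 20.5 on day 0 to 276 and 703 on day 10, higher by 3.49 (adjusted p = 0.0014), at least 9.50-fold. The first call was on day 5, at 1.94 (adjusted p = 0.0381), and it was lost without any 1 of its 4 libraries (1.70 to 2.18, adjusted p = 0.091 to 0.213). The same held on day 6 (1.86 with all libraries, 1.66 to 2.07 without 1, adjusted p = 0.0928 to 0.206). Day 7, at 2.08, was lost without replicate 1 of day 0 (adjusted p = 0.126), replicate 2 of day 0 (adjusted p = 0.0571) or its own replicate 2 (adjusted p = 0.169). Day 8, at 2.03, was lost without replicate 1 (adjusted p = 0.132) or replicate 2 (adjusted p = 0.0586) of day 0, and without its own replicate 2 it came to 0.96 (adjusted p = 0.399). Day 9, at 2.35, was lost without replicate 1 of day 0 (adjusted p = 0.058) or its own replicate 2 (adjusted p = 0.0846). The F test over the days, at 0.0371, was lost without any 1 of 8 libraries, replicates 1 (0.157) and 2 (0.1) of day 0, replicate 1 of day 1 (0.0628), both of day 3 (0.0506 and 0.0512), and replicates 2 of day 6 (0.0525), day 9 (0.0634) and day 10 (0.0796). It was also lost with no detection filter (0.0667), no intensity trend (0.0732) and the ACTB ratio (0.195), and control centring, no filter, no trend and an added 50 each ended days 5 and 6 (adjusted p = 0.0577 to 0.0658). The ACTB ratio ended day 6 as well (adjusted p = 0.0704), and a fit of the 2 groups alone ended day 8 (adjusted p = 0.057).

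SFRP1, another WNT-binding inhibitor, was present on every array with 202037_s_at and was not called on any day. It gave 1548 and 1616 on day 0, 903 and 1181 on day 1, 760 and 1152 on day 2, 472 and 1002 on day 3, and 462 and 609 on day 4. On day 10 it gave 657 and 915. Both samples of every treated day were below both samples of day 0, but the undifferentiated lines spanned a wider range, with 806 and 816 in H9 and 610 and 4756 in HUES8. The change of −1.58 ± 0.67 on day 4 did not pass (limma adjusted p = 0.206), nor did −1.03 on day 10 (adjusted p = 0.307). The SE is set by all 26 samples, and when only the 2 groups compared were fitted, days 4 (adjusted p = 0.0025) and 10 (adjusted p = 0.0109) passed. The gap between the HUES8 samples stood in all 3 tested SFRP1 probe sets, with 342 and 2682 for 202036_s_at and 150 and 806 for 202035_s_at.

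DKK1, which blocks WNT signalling by binding the coreceptors LRP5 and LRP6, was close to the detection limit. Its probe set 204602_at was present in 3 of 26 samples, at 88.0 in 1 sample of day 7, 116 in 1 of H9 and 77.0 in 1 of HUES8. In the other 23 samples the signals, all absent calls, overlapped this range, with 11.3 and 89.9 on day 0 and 59.9 and 30.8 on day 10. The F test over the days did not pass (limma adjusted p = 0.962). At this signal a difference could not be measured.

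TCF7L1 acts mainly as a repressor of WNT targets and limits self-renewal genes in mouse embryonic stem cells. Its probe set 221016_s_at was present on every array and gave 971 and 921 on day 0, 1128 and 841 on day 1, 584 and 737 on day 4, 529 and 604 on day 8, 525 and 568 on day 9, and 446 and 364 on day 10. The H9 samples gave 1231 and 1086 and the HUES8 samples 1001 and 1524. All 14 samples from day 4 on were below all 6 undifferentiated samples. TCF7L1 fell by 1.23 ± 0.21 on the log2 scale on day 10 (limma adjusted p = 0.00028), which is 2.34-fold lower, and no single library decided that call. The changes of −0.74 on day 8 (adjusted p = 0.0228) and −0.79 on day 9 (adjusted p = 0.0129) were less secure. Day 8 was lost without any 1 of its 4 libraries (−0.65 to −0.84, adjusted p = 0.0605 to 0.169), and day 9 without replicate 1 (adjusted p = 0.0779) or replicate 2 (adjusted p = 0.0548) of day 0 or its own replicate 1 (adjusted p = 0.0804). The ACTB ratio as a covariate ended day 8 (adjusted p = 0.0579) and the F test over the days (0.0542), and control centring added a call on day 5 (−0.78, adjusted p = 0.0491).

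TCF7L2 is another nuclear partner of β-catenin, and its 6 tested probe sets differed in their calls. With 212761_at the signals were 3650 and 4093 on day 0, 5953 and 6693 on day 2, 2208 and 4443 on day 5, and 2368 and 2167 on day 10. Days 8 to 10 lay between 1953 and 2368, below all 6 undifferentiated samples, whose lowest was 2445 in H9. The F test over the days passed (limma adjusted p = 0.0112), but neither 0.71 on day 2 (adjusted p = 0.317) nor −0.77 on day 10 (adjusted p = 0.105) did. Day 10 passed at the same size in the fit blocked on replicate number (adjusted p = 0.0188) and when only the 2 groups were fitted (adjusted p = 0.0124). Of the other 5 probe sets, 4 fell on day 10: 216511_s_at by 1.06 (adjusted p = 0.0024), 216035_x_at by 0.87 (adjusted p = 0.0057), 216037_x_at by 0.76 (adjusted p = 0.0018) and 212762_s_at by 1.34 (adjusted p = 0.0022). The fifth, 212759_s_at, had −0.48 and did not pass on day 10 (adjusted p = 0.370). These 5 probe sets overlapped the undifferentiated samples on days 8 to 10. Only 3 of 6 samples of those days lay below all 6 undifferentiated samples for 216511_s_at and for 216035_x_at. For each of 216037_x_at, 212762_s_at and 212759_s_at, 5 of 6 did. With the ACTB ratio as a covariate 216511_s_at (adjusted p = 0.0733), 216035_x_at (adjusted p = 0.0522) and 212762_s_at (adjusted p = 0.0532) missed the threshold, as did 216035_x_at without replicate 2 of day 10 (−0.69, adjusted p = 0.0833).

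**Figure D2:**
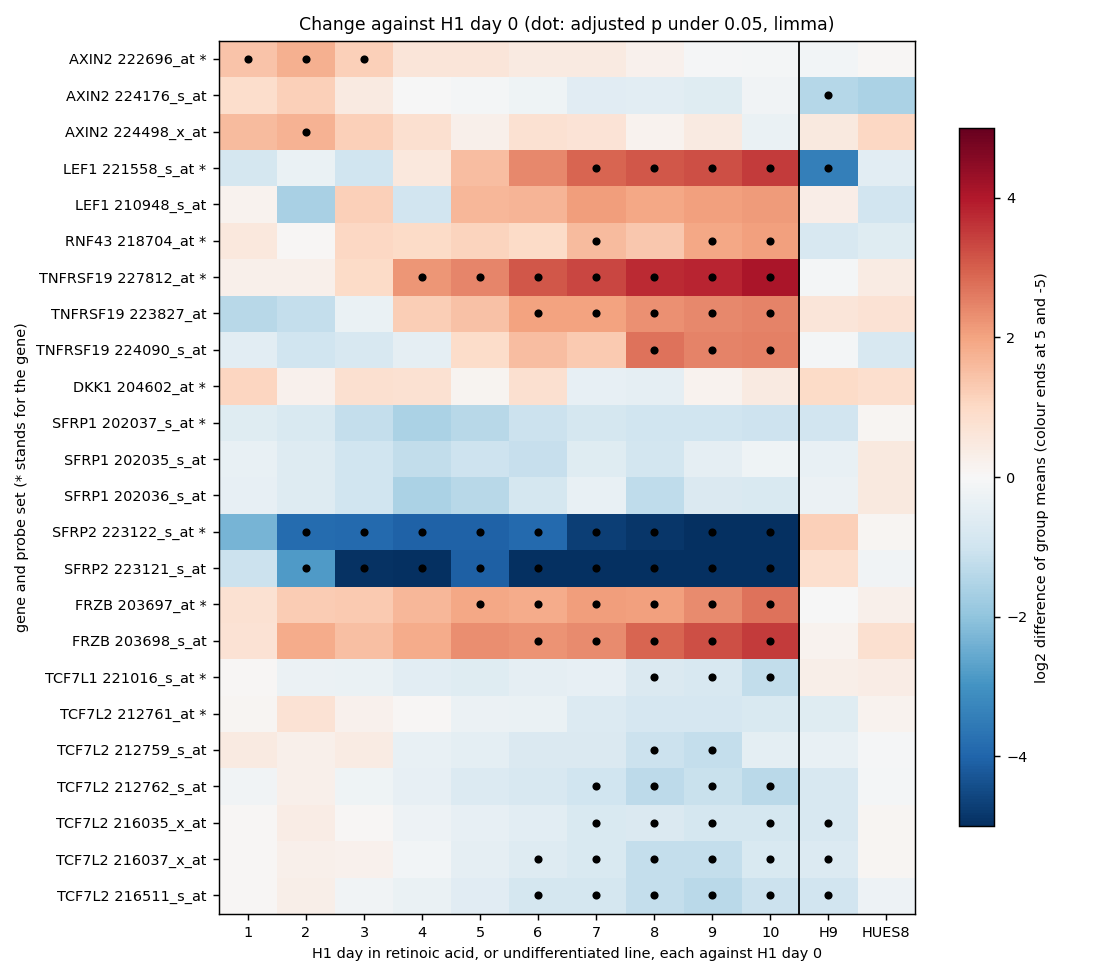
Heat map of the log2 difference of group means against H1 day 0 for the 24 tested probe sets (rows, a star marking the one that stands for its gene) on days 1 to 10 and in H9 and HUES8 (columns), red for higher and blue for lower, with 2 samples a group; a dot marks a limma adjusted p under 0.05. AXIN2 222696_at carries dots on days 1 to 3, with 1.76 on day 2, TNFRSF19 227812_at deepens to 4.10 on day 10, and SFRP2 223122_s_at, at −6.65 on day 10, lies beyond the end of the colour scale.

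With all samples fitted, LEF1 was the only one of these genes called between undifferentiated lines. Signals of SFRP1 and SFRP2 also differed between lines, without a call. LEF1 was lower in H9, at 6.96 and 4.56, than in H1 day 0, by −3.41 (limma adjusted p = 0.0309), but all 4 samples were absent calls, so no fold is given. That call was lost without any 1 of the 4 libraries (adjusted p = 0.0927 to 0.187) and came to −0.99 (adjusted p = 0.295) with 50 added to each signal. It also missed the threshold with no detection filter (adjusted p = 0.0502), no intensity trend (adjusted p = 0.0595) and on these groups alone (adjusted p = 0.114). In HUES8 the LEF1 signals were 11.2, absent, and 152, present. Between HUES8 and H9, LEF1 (4.75, adjusted p = 0.005) and SFRP1 (2.55, adjusted p = 0.0422) were called only without replicate 1 of HUES8. SFRP2 did not pass between H9 and H1 day 0, at 1.18 (adjusted p = 0.317). Beyond the probe sets that stand for the genes, 3 of TCF7L2 were lower in H9 than in H1 day 0, 216511_s_at (−0.96, adjusted p = 0.0219), 216035_x_at (−0.81, adjusted p = 0.0363) and 216037_x_at (−0.69, adjusted p = 0.0182). Each was lost without replicate 1 of H9 (adjusted p = 0.0936 to 0.215) and without replicate 1 of day 0 (adjusted p = 0.125 to 0.17). The probe set 216035_x_at was also lost without either other library (adjusted p = 0.125 and 0.142), 216511_s_at without replicate 2 of day 0 (adjusted p = 0.0981) and 216037_x_at without replicate 2 of H9 (adjusted p = 0.0986).

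Set against all 3 lines, the day 10 calls were less uniform. LEF1 was lost without replicate 1 of HUES8 (2.14, adjusted p = 0.119), replicate 2 of day 0 (3.22, adjusted p = 0.0894) or replicate 1 of day 10 (2.89, adjusted p = 0.119). FRZB was lost without replicate 1 of HUES8 (2.10, adjusted p = 0.0776), replicate 2 of H9 (2.22, adjusted p = 0.0522) or replicate 2 of day 10 (1.89, adjusted p = 0.118). RNF43 was lost without replicate 2 of day 0 (1.61, adjusted p = 0.125). With the ACTB ratio as a covariate LEF1, FRZB and RNF43 all missed the threshold (adjusted p = 0.207, 0.0593 and 0.148). TNFRSF19, SFRP2 and TCF7L1 kept their calls in each of these fits.

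The 2 replicates of late days differed in an order that recurred for some of these genes. Over days 6 to 10, replicate 1 had the higher signal on 5 of 5 days for RNF43 and for all 3 TNFRSF19 probe sets, and on 4 of 5 for LEF1. Replicate 2 had the higher signal on 5 of 5 days for FRZB, with both tested probe sets, and for all 3 tested SFRP1 probe sets, and on 4 of 5 for TCF7L1 and for 212761_at of TCF7L2. For 202037_s_at of SFRP1 replicate 2 was higher on 10 of 10 days. AXIN2 (222696_at), SFRP2 (223122_s_at) and DKK1 showed no such order over days 6 to 10, with replicate 1 higher on 3, 3 and 2 of 5 days. The share of all genes with such an order was not computed. The labels do not say that samples with the same number share a culture.

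**Figure D3:**
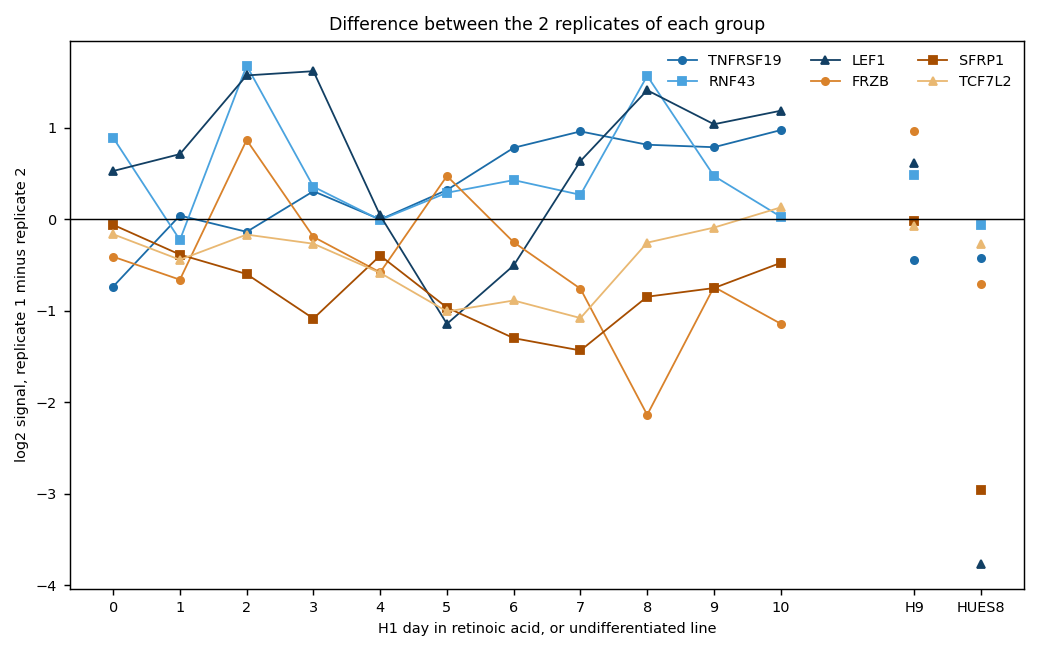
Difference in log2 signal, replicate 1 minus replicate 2, by H1 day and in H9 and HUES8, for TNFRSF19, RNF43, LEF1, FRZB, SFRP1 and TCF7L2 (1 probe set each, 1 point per group); the line at 0 means equal signals. Over days 6 to 10 RNF43 and TNFRSF19 sit above 0 on 5 of 5 days and SFRP1 and FRZB below 0 on 5 of 5.

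Around these 10 genes, 109 other genes of the pathway were listed by role, of which 101 had a probe set of their own and 72 were tested. On day 10, 26 of the 72 were called, 15 higher and 11 lower, beside 24.4% of all genes. On day 1 the calls among them were LRP5, higher, and ROR1, lower. Of 5 tested ligands, WNT5A, which signals mostly without β-catenin, was higher, from 173 and 92.8 to 944 and 421 (log2 change 2.31, limma adjusted p = 0.00056, 4.97-fold). WNT8A, a ligand of early embryos, was lower by −2.33 (adjusted p = 0.0077) with no present call in either group, and that call was lost without replicate 1 of day 10 (adjusted p = 0.0662). With the ACTB ratio as a covariate the WNT5A call was lost (1.69, adjusted p = 0.0548).

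Of 14 tested receptors and coreceptors, 6 were higher and 2 lower on day 10. FZD5, a Frizzled receptor, fell from 4810 and 5000 to 746 and 737 (6.61-fold lower, limma adjusted p = 4.0e-07). The receptor tyrosine kinase ROR1, which binds WNT5A, fell from 1369 and 1282 to 174 and 135 (8.63-fold lower, adjusted p = 1.4e-06), with 359 and 440 on day 1. The Frizzled receptor FZD2 was higher, from 532 and 429 to 2150 and 1496 (3.75-fold, adjusted p = 0.0055), and the coreceptor LRP5 from 22.9 and 75.6 to 221 and 206 (at least 3.65-fold, adjusted p = 0.0029). LRP5 gave 231 and 130 in undifferentiated H9 and 120 and 85.8 in HUES8. Its day 10 signals were thus not above all undifferentiated samples. The FZD2 call was lost without replicate 2 of day 0 (adjusted p = 0.0565) or replicate 1 of day 10 (adjusted p = 0.0597), and that of LRP5 without replicate 1 of day 0 (adjusted p = 0.0808). With the ACTB ratio as a covariate neither passed (adjusted p = 0.138 and 0.0806).

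WLS, the carrier that takes WNT ligands to the cell surface, was the 1 called of 4 genes of ligand processing and R-spondin signalling. It gave 59.0 and 184 on day 0, 3512 and 3217 on day 5 and 3092 and 2922 on day 10, at least 24.5-fold higher (limma adjusted p = 1.5e-05). Of 8 other secreted or surface inhibitors, 2 were higher and 1 lower. CER1, a secreted antagonist of WNT, BMP and Nodal, fell from 1200 and 1035 to 153 and 200 (at least 6.39-fold lower, adjusted p = 0.0020), with 252 and 209 on day 1. SFRP4, another SFRP, had 57.6 and 63.1 and then 131 and 224 (at least 2.83-fold, adjusted p = 0.029), and its call was lost without replicate 1 (adjusted p = 0.116) or replicate 2 (adjusted p = 0.0972) of day 0 or replicate 2 of day 10 (adjusted p = 0.238). SOSTDC1, an inhibitor of WNT and BMP, had 240 and 53.0 on day 10 (at least 3.15-fold, adjusted p = 0.024), lost without replicate 1 (adjusted p = 0.0805) or replicate 2 (adjusted p = 0.102) of day 0 or replicate 1 of day 10 (adjusted p = 0.235). The ACTB ratio as a covariate ended the calls of SFRP4 (adjusted p = 0.110) and SOSTDC1 (adjusted p = 0.404), as did a fit of the 2 groups alone (adjusted p = 0.0838 and 0.0598), and SFRP4 was lost with no detection filter (adjusted p = 0.0616).

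Of 15 genes of the destruction complex and β-catenin, DVL3, which relays the signal from Frizzled, was higher (2.18-fold, limma adjusted p = 0.0008) and FRAT2, which binds the kinase GSK3, was lower (1.91-fold, adjusted p = 0.028). DVL3 went from 437 and 316 on day 0 to 778 and 843 on day 10. Undifferentiated H9 was close to day 10 for DVL3, at 766 and 680, and HUES8 gave 470 and 497. The FRAT2 call was lost without replicate 1 of day 0 (adjusted p = 0.207) or either library of day 10 (adjusted p = 0.149 and 0.0635), and with the ACTB ratio (adjusted p = 0.379). CTNNB1, which encodes β-catenin, had a change of −0.05 and was not called. Of 13 nuclear cofactors, TLE1, a corepressor that binds TCF factors, fell from 2437 and 2449 to 837 and 952 (2.74-fold lower, adjusted p = 0.00014). Of 13 other target genes, 4 were higher and 5 lower. MYC, a growth regulator, fell from 2435 and 2392 to 99.1 and 18.2 (at least 35.2-fold lower, adjusted p = 4.6e-05). The homeobox gene MSX2 rose from 10.8 and 6.40 to 1562 and 732 (at least 29.8-fold), its relative MSX1 from 5.76 and 28.3 to 1741 and 336 (at least 21.3-fold), and ID2, an inhibitor of basic helix-loop-helix factors, from 642 and 599 to 5574 and 3392 (7.01-fold).

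**Figure D4:**
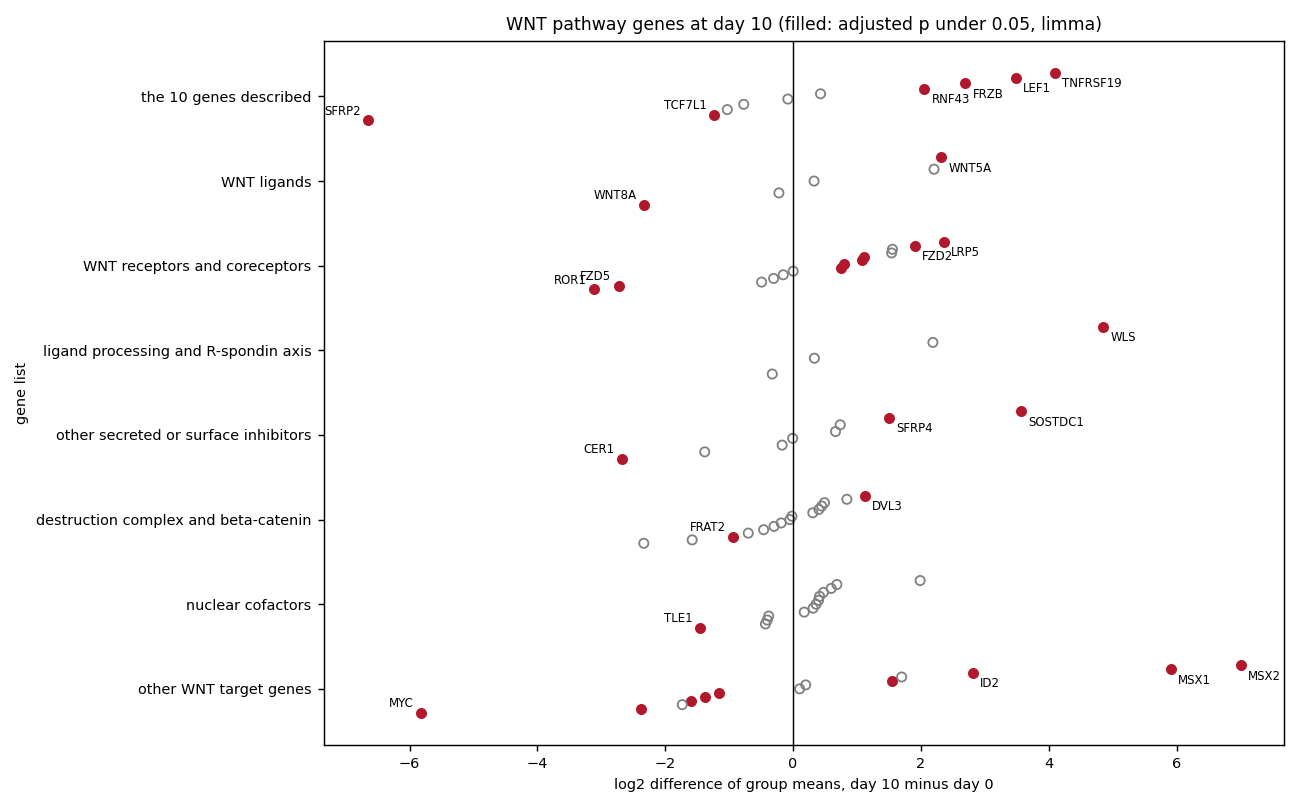
Log2 change on day 10 against day 0 of the tested genes of each pathway list and of the 10 genes, 1 point per gene from limma with 2 samples a group; filled points have an adjusted p under 0.05, and named points are those described in the text. Of the 72 other pathway genes 15 filled points lie above 0 and 11 below.

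The marker lists show which other expression moved with these genes. On day 10, 12.4% of all genes were called higher and 12% lower, to be set beside the counts below. A summed signal adds different probe sets, so bright ones weigh most, and it is compared only with itself across samples. All 10 markers of undifferentiated cells were lower on day 10, and their summed signal went from 132390 and 133138 on day 0 to 19119 and 17799, with 6 of 10 still present in each sample. It was 125649 to 130779 in H9 and HUES8. All 8 tested markers of epithelium and trophoblast were higher on days 5 and 10, with sums of 12289 and 12601 on day 0, 66230 and 58981 on day 5, and 57188 and 61398 on day 10. Of 7 tested neural crest markers, which include MSX1 and MSX2, 4 were higher and 2 lower, with sums of 3529 and 3828 and then 8358 and 4563. The crest sums were 4426 and 4122 in H9 and 4997 and 3572 in HUES8, so replicate 2 of day 10 lay within the undifferentiated range. Of 9 fibroblast and smooth muscle markers, 3 were higher and 2 lower. Their sums were 12097 and 10263 on day 0, 4532 and 6063 on day 4, and 29262 and 22469 on day 10. In undifferentiated H9 they were 17068 and 16846, and in HUES8 17288 and 14402.

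Neural progenitor markers gave 1 higher and 2 lower of 6, with sums of 4136 and 3718 and then 1009 and 1234. Markers of primitive streak and mesoderm gave 1 higher and 1 lower of 4 (sums of 1603 and 1090, then 637 and 621). Those of definitive endoderm also gave 1 and 1 of 4 (538 and 611, then 636 and 870). Of the 4 streak markers, 1 and 2 were called present on day 0, and 1 and 1 on day 10. Of the 4 endoderm markers, 0 and 0 were called present on day 0, and 1 and 2 on day 10. Undifferentiated H9 had higher endoderm sums than day 10, at 916 and 1082, with 2 and 2 present. HUES8 had 645 and 532, with 1 and 0 present. The late changes of LEF1, RNF43, TNFRSF19, FRZB, TCF7L1 and SFRP2 coincide with these shifts in the cultures, whose part in the results was not tested. On day 1, when AXIN2 was called, 1 of 10 undifferentiated markers was called, higher, and of 9 fibroblast and smooth muscle markers COL1A1 was higher (1.70, limma adjusted p = 0.0048) and THY1 lower (−1.29, adjusted p = 0.0066). None of the epithelial, crest, neural, streak or endoderm markers was called on that day, when 1.12% of all genes were called. These lists were not all flat, with median log2 changes of 0.29, 1.12, −0.27, −0.73 and 0.03 in that order.

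The genes whose log2 signal was most like that of each called gene over the 26 samples, by Pearson's r, are given as a description. AXIN2 was most like DEPTOR (r = 0.91) and CACHD1 (0.90), TNFRSF19 like IGDCC3 and FREM2 (0.97 each), and LEF1 like MEST (0.94) and GPC3 (0.93). RNF43 was most like SERTAD2 and SLCO2A1 (0.91 each), and FRZB like WDSUB1 (0.90) and ZNF395 (0.89). Among genes with their high signals early, SFRP2 was most like PPP2R2C (0.95) and HK1 (0.94), TCF7L1 like ZIC2 (0.92), which is also in the undifferentiated marker list, and ACOT7 (0.91), and TCF7L2 like SAMHD1 (0.90) and IDH1 (0.89). Between the 10 genes themselves, r was 0.88 for LEF1 with TNFRSF19, 0.82 for RNF43 with TNFRSF19, 0.87 for SFRP2 with TCF7L1, −0.86 for SFRP2 with FRZB, and 0.68 for AXIN2 with TCF7L2. All 26 points share the same day groups, so any 2 genes that move along the course correlate.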

How the data were processed

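Total RNA of each sample was hybridised to Affymetrix HG-U133 A and B chips. The deposited intensity values are MAS5 signals on a linear scale, per the submitters' processing notes, with the authors' detection p-value beside each. The trimmed mean of each array, with 2.0% of probe sets left out at either end, lay near 500.2, and the deposited copies of the signals differed by at most 5.0e-06 in relative size. Software settings beyond the name MAS5 are not given in the sources used here.

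Probe sets were named through the platform annotation: 34491 named 1 gene, 1597 named several, 8704 named none, and 34454 of the 34491 were found in the RefSeq gene table. The 21528 that named 1 gene and were present on at least 2 of 26 arrays were tested (12539 on the A chip, 8989 on the B chip, 12201 genes). The log2 signal of each chip was fitted with limma 3.58.1 in R 4.3.3, with 1 mean per group over all 26 samples and a variance trend with intensity. All tests were two-sided. The p-values of a comparison, over both chips together, received Benjamini-Hochberg adjustment, and a probe set was called at an adjusted p under 0.05. For day 10 against each undifferentiated line, the largest of the 3 p-values was adjusted.

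Where a gene had several tested probe sets, the brightest on average (log2 scale, those marked _x_ last) stands for it. Bounds written "at least" raise the lower group, where it has no present call, to the lowest present signal of each array (18.6 to 47.4 on the A chip, 50.0 to 84.3 on the B chip); signals already above that level keep their value. Named pathway genes are the up to 4 called genes of each list with the largest change on day 10; CTNNB1, COL1A1, THY1 and the remaining probe sets of the members are named besides, after their values were seen. The members, lists and tests were chosen with earlier results of these data known. Labels call the 2 samples of a group biological replicates and do not say whether they were separate differentiations, so p-values measure the spread between these samples. The number of arrays limits the precision.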

Additional observations from a re-analysis of the deposited data

How the results depend on the processing

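Over all other settings and left-out libraries, the probe sets that stand for the 10 genes gave 2170 repeat values. Of these 2033 kept direction and side of the threshold, 104 lost the call, 33 gained it and none of the called ones changed sign; 90 changed sign where neither fit made a call. With the ACTB ratio as a covariate, the F test called 5 genes in place of 8, day 7 called 3 in place of 5, day 8 called 3 in place of 5, and day 10 against each undifferentiated line 3 in place of 6. Day 7 also came to 3 with arrays centred on control probe sets and with no detection filter. Day 1 came to 2 in place of 1 with 50 added before log2 and when only the groups compared were fitted. H9 against H1 day 0 came to 0 in place of 1 with no detection filter, with 50 added and with no intensity trend, and to 3 when only these groups were fitted, a fit that also gave 2 in place of 0 for HUES8 against H9. The cause of these moves was not tested. Leaving out 1 library gave 6 to 8 genes in the F test, 0 to 1 on day 1, 2 on day 2, 1 to 2 on day 3, 2 to 3 on day 4, 2 on days 5 and 6, 2 to 3 on day 7, 2 to 4 on day 8, 3 to 5 on day 9 and 4 to 6 on day 10. It gave 0 for H9 against H1 day 0, 0 for HUES8 against H1 day 0, 0 to 2 for HUES8 against H9 and 4 to 6 for day 10 against each line. A group left with 1 library is assumed to vary like the others. For the other pathway genes on day 10, repeats added after seeing the data gave 16 with the ACTB ratio in place of 26, and 17 to 24 without 1 library, with the 17 coming without replicate 1 of day 10. With the replicate block, 3 genes were called on day 4, 4 on day 5, 7 on days 8, 9 and 10, and as many as without it in the F test and on days 1, 2, 3, 6 and 7. The labels do not say that a number marks a shared culture, and with 2 numbers a group the pairing is not established. Deviations of same-numbered samples correlated with a median r of 0.110 on the A chip, over 0.1 in 32 of 55 pairs of H1 groups, and 0.0894 on the B chip, over 0.1 in 23 of 55. Among the 45 pairs of treated days the median r was 0.145 on the A chip (lowest 0.012) and 0.0993 on the B chip (lowest −0.0172). Centring on control probe sets moved the median of all probe sets against day 0 to −0.17 on days 1, 4 and 5, −0.24 on day 2, −0.20 on day 3, −0.12 on day 6 and 0.12 on day 10, to −0.29 for H9 against H1 day 0, −0.14 for HUES8 against H1 day 0, 0.13 for HUES8 against H9, 0.42 for day 10 against H9, 0.29 for day 10 against HUES8 and 0.20 for day 10 against day 9. Signals near the detection limit restrict what can be said of DKK1, of LEF1 in undifferentiated cells and of RNF43 on day 0.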
